A study of Mus musculus with 3 samples.

Results

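The genes of oxidative phosphorylation were followed through the cells of the mouse lacrimal gland (LG), the gland that secretes the watery part of tears. All features whose symbols begin as those of the mitochondrially encoded or nuclear subunits do (mt-Nd, mt-Co, mt-Cytb and mt-Atp, and Nduf, Cox4 to Cox8, Uqcr and Atp5) were taken, which matched 103 genes. One of them, Ndufb1-ps, was dropped for its suffix, and 102 of the 32285 features of the count matrices remained, of 20471 with at least 1 UMI (unique molecular identifier, 1 count per captured molecule) in the cells kept. The 102 comprised 13 mitochondrially encoded genes and 89 nuclear genes. Grouped by symbol alone, the nuclear genes were 38 of complex I, 8 of complex III, 18 of complex IV, 17 of ATP synthase and 8 Ndufaf genes. The Ndufaf genes encode assembly factors of complex I and were kept apart from the 81 subunit genes. By this grouping Ndufa4 and Ndufa4l2 count as complex I in all counts by role, and the complex their proteins belong to was not examined. The 3 members with fewer than 10 UMIs were only counted.

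Dissociated LG cells were measured by droplet single-cell RNA sequencing in 3 libraries, 1 from female and 2 from male C57BL/6J mice aged 2 months. Each library held 6 glands of 3 pooled animals, and erythrocytes and dead cells had been depleted from the suspensions. The female library came from another core facility and another day than the male libraries, so no comparison of the sexes was made, as core, day and sex cannot be told apart. After filtering, 7652 female cells, 5295 cells of male library 1 and 5397 cells of male library 2 remained. They held 55390678, 37641576 and 41269825 UMIs, and the median cell had 3252, 1884 and 1788 UMIs. Between 8 and 13 cell barcodes were shared by each pair of libraries. Cells were clustered without the members, and clusters were named as "like" a cell type from marker genes. Acinar-like, Car6hi-like, Tfrchi-like, Ltf+-like, duct-like and myoepithelial (MEC)-like cells were the epithelial classes. The other classes were myeloid-like, lymphoid-like, fibroblast-like, mural-like and endothelial-like cells, and 95 cells stayed unnamed.

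The respiratory chain passes electrons from complex I to complex III and complex IV and pumps protons across the inner mitochondrial membrane, and ATP synthase uses the returning protons to make ATP. The core hydrophobic subunits of these complexes are transcribed inside the mitochondrion from its own small genome, while all other subunits are transcribed in the nucleus, translated in the cytosol and imported. Complex II has no mitochondrially encoded subunit and was kept as a separate list. Several nuclear subunits have a widely used form and a form restricted to certain tissues, such as Cox4i1 and Cox4i2.

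Sequences upstream of the nuclear genes were read from RefSeq (GRCm38.p6, 250 bases before to 50 bases after the transcription start), which held 77 promoters for 72 of the 89 nuclear members. The core of the binding motif of nuclear respiratory factor 1 (NRF1), a palindrome of 10 letters shown in capitals in the Atp5g2 promoter, was found on either strand in 7 of the 77 (9.091%), against 0.9711% of all 32851 promoters of the same length. The core of the ETS family motif, CCGGAAG, was found in 17 of the 77 (22.08%), against 8.858% of all promoters. Neither motif contains the other, and a match is a description of the sequence only. The promoters of Atp5g2 (chr15:102670998-102671297, minus strand), Ndufa11 (chr17:56717512-56717811, plus strand) and Cox6a1 (chr5:115348909-115349208, minus strand) are shown because they hold the NRF1 core and the genes are described below. The promoters of Cox6b1 (chr7:30626065-30626364, minus strand), the widely used form of a complex IV subunit, and of its restricted form Cox6b2 (chr7:4753045-4753344, minus strand) are shown as a pair. Sequences run 5′ to 3′ on the gene's strand, and capitals mark the NRF1 core or the ETS core (CTTCCGG where it lies on the other strand).
Atp5g2: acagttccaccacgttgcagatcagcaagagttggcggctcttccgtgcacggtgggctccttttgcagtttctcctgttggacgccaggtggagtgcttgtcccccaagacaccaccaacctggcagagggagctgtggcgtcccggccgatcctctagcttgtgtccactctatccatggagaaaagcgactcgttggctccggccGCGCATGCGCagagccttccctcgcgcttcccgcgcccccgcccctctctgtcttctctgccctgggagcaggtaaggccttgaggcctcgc
Ndufa11: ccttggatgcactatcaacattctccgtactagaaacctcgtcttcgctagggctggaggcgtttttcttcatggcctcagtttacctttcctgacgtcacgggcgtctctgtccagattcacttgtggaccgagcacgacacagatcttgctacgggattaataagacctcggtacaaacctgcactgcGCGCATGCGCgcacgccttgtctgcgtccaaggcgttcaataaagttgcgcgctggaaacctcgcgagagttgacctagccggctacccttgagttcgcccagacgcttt
Cox6a1: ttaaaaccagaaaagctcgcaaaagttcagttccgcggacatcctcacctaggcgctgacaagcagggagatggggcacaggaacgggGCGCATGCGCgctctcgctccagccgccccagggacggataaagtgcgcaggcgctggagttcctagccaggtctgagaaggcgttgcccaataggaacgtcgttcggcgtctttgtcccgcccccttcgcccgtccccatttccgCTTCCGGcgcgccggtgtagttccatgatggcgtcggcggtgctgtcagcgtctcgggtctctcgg
Cox6b1: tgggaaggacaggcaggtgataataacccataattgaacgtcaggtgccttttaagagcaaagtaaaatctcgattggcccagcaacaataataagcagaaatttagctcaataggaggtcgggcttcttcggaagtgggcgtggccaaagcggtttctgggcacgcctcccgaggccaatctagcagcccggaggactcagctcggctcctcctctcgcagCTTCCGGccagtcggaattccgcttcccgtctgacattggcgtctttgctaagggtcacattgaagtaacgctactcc
Cox6b2: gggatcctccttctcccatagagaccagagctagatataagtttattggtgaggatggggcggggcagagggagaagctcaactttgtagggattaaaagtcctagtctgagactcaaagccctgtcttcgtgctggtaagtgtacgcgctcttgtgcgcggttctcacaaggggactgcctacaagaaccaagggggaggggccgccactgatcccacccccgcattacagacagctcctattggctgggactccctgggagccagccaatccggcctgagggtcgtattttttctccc
Cox6b1 held 1 ETS core and Cox6b2 held neither motif in this window.

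Tear-product RNA made up 89.9% of the UMIs of acinar-like cells on average and 43.5% of those of MEC-like cells, so levels were given per 1000000 UMIs outside 119 tear-product genes and outside the mitochondrial genes (UMIs here called core UMIs, and the scale core CPM). The 6 acinar markers together stood at 6699 to 9624 core CPM in acinar-like and, though none was at 0, at 301 to 853 in duct-like cells. On this scale the summed mitochondrially encoded members stood at 209127 ± 7684 (SD, n = 3 libraries here and below) in Car6hi-like and 194723 ± 36922 in Tfrchi-like cells. They stood at 139056 ± 14299 in acinar-like and 115683 ± 12312 in Ltf+-like cells. Duct-like cells had 49491 ± 1847, MEC-like cells 52182 ± 1376 and myeloid-like cells, the lowest, 38272 ± 6479. The acinar states and Ltf+-like cells thus lay above all other classes, whose highest value was 92123 in female mural-like cells, while Car6hi-like and Tfrchi-like cells overlapped with each other, as did acinar-like and Ltf+-like cells.

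The nuclear subunits were ordered differently. Ltf+-like cells had the highest summed level, 36507 ± 650 core CPM, followed by mural-like cells with 34890 ± 2655 and acinar-like cells with 32777 ± 1241, where Ltf+-like overlapped with mural-like and mural-like with acinar-like cells. Acinar-like cells did not overlap with the next class. Duct-like cells had 27153 ± 1786 and Car6hi-like cells 27077 ± 5226, and myeloid-like cells had 18554 ± 2958. Tfrchi-like cells had the lowest level, 14752 ± 3357, although they were second highest for the mitochondrially encoded part. The range of Tfrchi-like cells overlapped that of myeloid-like cells.

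**Figure D1:**
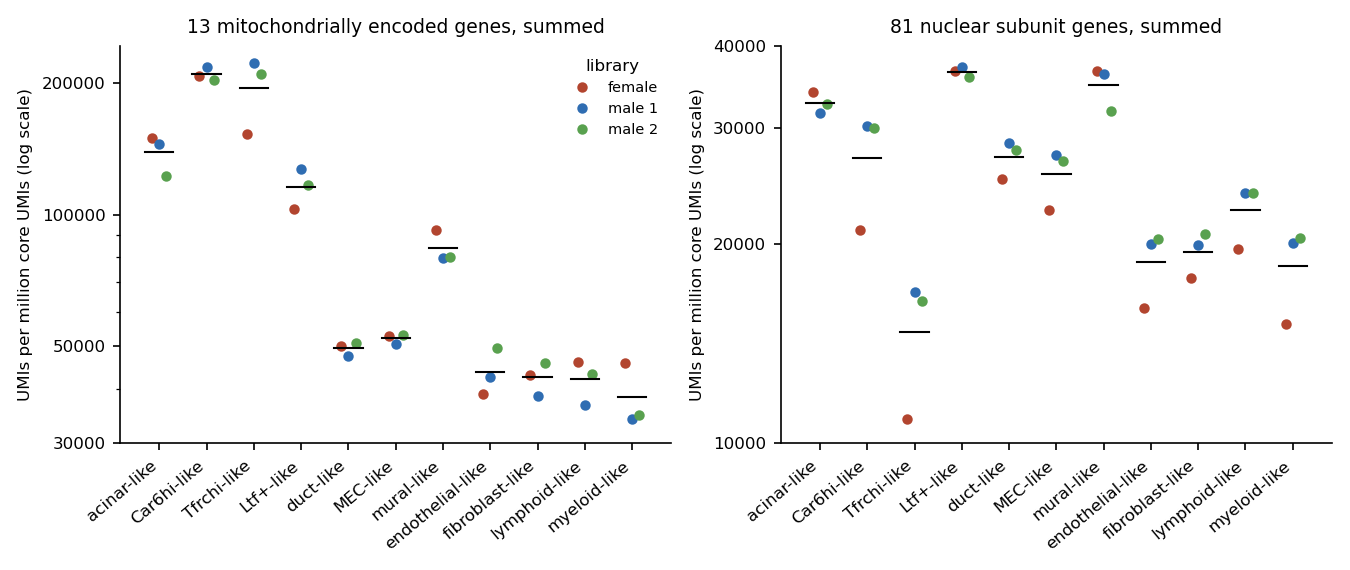
Summed UMIs of the 13 mitochondrially encoded genes (left) and of the 81 nuclear subunit genes (right) in core CPM, on log axes, in 11 cell classes; points are the 3 libraries and bars their mean. Car6hi-like and Tfrchi-like cells lie highest on the left at 209127 and 194723, while Tfrchi-like cells lie lowest on the right at 14752.

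The ratio of the mitochondrially encoded to the nuclear subunit UMIs needs no scaling total, but it differed with the UMI count of the cells (below). Its log2 was 3.81, 3.71 and 3.67 for Tfrchi-like cells of the female library and of male libraries 1 and 2. It was 3.30, 2.85 and 2.76 in Car6hi-like, 2.13, 2.20 and 1.91 in acinar-like and 1.49, 1.78 and 1.71 in Ltf+-like cells. None of these 4 classes overlapped with its neighbour in the order, and all lay above the other classes in the male libraries. The other 7 classes ran from 1.27 ± 0.11 in mural-like to 0.87 ± 0.13 in duct-like cells, and each of them overlapped with the next. The female myeloid-like cells stood apart from both male libraries (1.59 against 0.77 and 0.77) and above the female Ltf+-like cells.

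Acinar-like cells exceeded duct-like cells in this log2 ratio by 1.21 ± 0.23, with 1.14, 1.47 and 1.03 in the 3 libraries. The difference fell to 0.66 ± 0.23 when cells with 5% or more mitochondrial UMIs were left out, and was 2.31 ± 0.55 when every cell was thinned to 1000 UMIs, which left out 10 acinar-like and 45 duct-like cells and gives each cell the same weight. It was positive in all 3 libraries under both. Free RNA in the droplets was also examined, because barcodes not called as cells but with more than 400 UMIs had log2 ratios of -0.30, -1.91 and -1.45 in the 3 libraries. This profile was chosen after the data were seen. Uncalled barcodes with 10 to 100 UMIs, the profile planned, had log2 ratios of 1.27, 1.92 and 1.95, from only 67990 UMIs in the female library. The estimate of free RNA took every tear-product UMI of duct-like, MEC-like and non-epithelial cells as free RNA. These UMIs include those of Wfdc18 and Lcn2, which the paper reports as mainly expressed by ductal cells and MECs. With the profile of more than 400 UMIs, free RNA was estimated at 47.8% to 64.2% of the UMIs of these classes on average. After it was subtracted, the ratios of these classes ranged from 1.04 ± 0.06 in duct-like to 1.51 ± 0.12 in endothelial-like cells, with the mean of acinar-like cells, which was not corrected, at 2.08 ± 0.15. With the profile of 10 to 100 UMIs the mean ratios moved the other way. They fell to 0.49 ± 0.41 in duct-like, 1.06 ± 0.24 in mural-like and -0.47 ± 1.49 in lymphoid-like cells. This shift lay mainly in the male libraries. In the female library the ratio went from 0.99 to 0.95 in duct-like and from 1.59 to 1.66 in myeloid-like cells. The level of the ratio in these classes thus depends on the profile taken for free RNA.

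**Figure D2:**
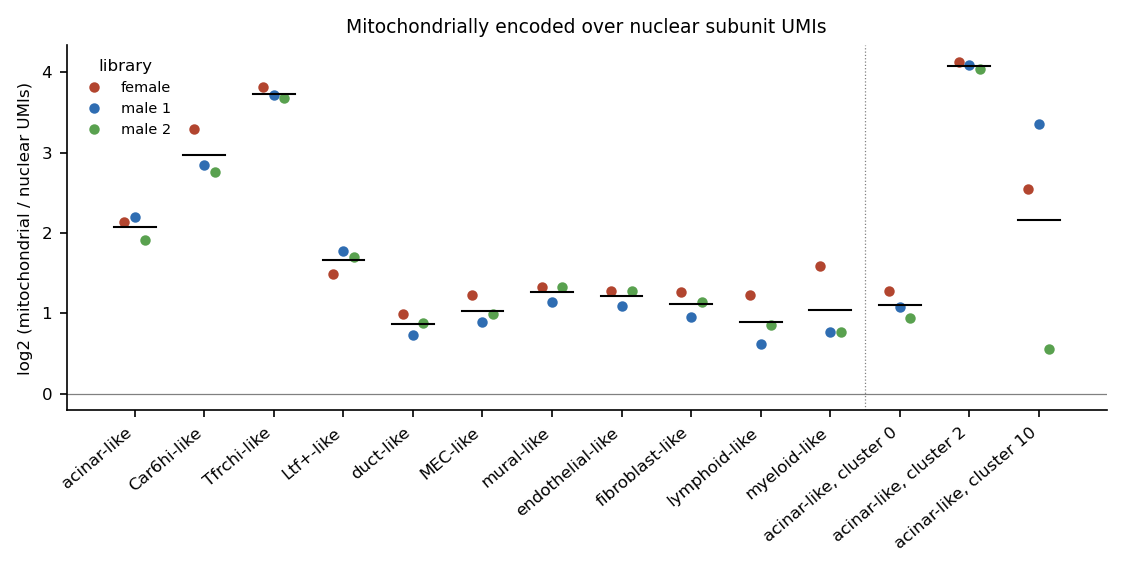
Log2 ratio of mitochondrially encoded to nuclear subunit UMIs in 11 cell classes and, right of the dotted line, in the 3 large acinar-like clusters; points are the 3 libraries and bars their mean. Tfrchi-like cells stand at 3.73, duct-like cells at 0.87, and acinar-like clusters 0 and 2 at 1.10 and 4.08.

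Within the 4006 acinar-like cells the ratio differed more between clusters than it did between most cell classes. Cluster 2 (1448 cells) had a log2 ratio of 4.08 ± 0.05 and cluster 0 (1611 cells) one of 1.10 ± 0.17. Cluster 10 (919 cells) depended on the library, with 2.55 for the female library against 3.36 and 0.56 for male libraries 1 and 2. The clusters were not defined with the members, but the median UMI count per cell, averaged over libraries, was 7738 in cluster 2 and 44455 in cluster 0. The acinar-like cells were therefore also split at each library's own median UMI count and at its own median mitochondrial share, and both groups of cells were compared within libraries.

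UMI-rich acinar-like cells held on average 224, 110 and 86.8 nuclear subunit UMIs per cell (female library, then male libraries 1 and 2), and UMI-poor cells 15.5, 15.5 and 18.1. This is a 14.4-fold, 7.07-fold and 4.80-fold difference, larger in each library than that of the core UMIs per cell (8.80-fold, 4.32-fold and 3.59-fold). The mitochondrially encoded UMIs per cell were 863, 279 and 193 in UMI-rich and 185, 297 and 201 in UMI-poor cells. In both male libraries UMI-rich and UMI-poor cells thus held nearly the same number of mitochondrially encoded UMIs per cell (0.938-fold and 0.958-fold), while the female library showed a 4.66-fold difference.

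**Figure D3:**
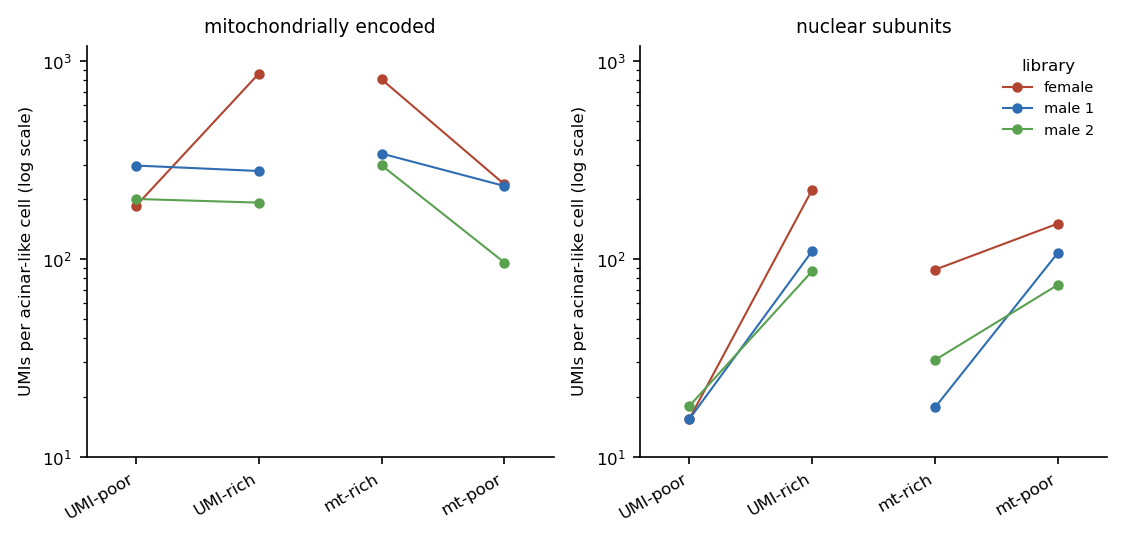
Mean UMIs per acinar-like cell from the mitochondrially encoded (left) and nuclear subunit genes (right), on log axes, in the cells of each library split at its median UMI count and at its median mitochondrial share; lines join the cells of 1 library. Nuclear subunit UMIs are higher in the UMI-rich cells of every library, 224 against 15.5 in the female library, and mitochondrially encoded UMIs differ between them in the female library more than in the male libraries.

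Differences between cell classes were tested gene by gene on UMIs summed per library and class, with edgeR's quasi-likelihood test. Library was a block, and p-values were adjusted after Benjamini and Hochberg across every gene tested. A gene is called higher or lower where its adjusted p is under 0.05. Log2 fold changes are relative to the other genes of the fit (TMM scaling), while levels are in core CPM. The printed levels and fold changes can therefore differ in size and direction. The 12 comparisons share cells, since each class is set against the pooled others. Their values are therefore given side by side and were not related to each other. With library as a block, p-values set the difference between the compared groups against how much it varies over these 3 libraries of pooled animals. The fit also drew on other genes to estimate this variation, since 3 libraries give little information for a single gene. Very small p-values, such as those of Cox4i2 and Ndufa4l2 in mural-like cells, rest mostly on this pooled estimate. They do not measure the spread of that gene over the 3 libraries alone. The spread between single animals is not measured.

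In the split of acinar-like cells by UMI count, 68 of the 80 nuclear members tested were higher in UMI-rich cells, where 17.0% of all genes tested were higher, and the other 12 passed in neither direction. All 13 mitochondrially encoded members were lower, where 13.5% of all genes tested were lower. The median log2 fold change was 1.02 for the nuclear members, -1.31 for the mitochondrially encoded members and -0.08 for all genes. By role, 34 of 37 complex I genes, 6 of 8 of complex III, 11 of 11 of complex IV and 14 of 17 of ATP synthase were higher. Atp5md, a small subunit of the membrane part of ATP synthase, had 309, 320 and 356 core CPM in UMI-rich cells of the 3 libraries and 150, 101 and 178 in UMI-poor cells (log2 fold change 1.62 ± 0.21 (SE), edgeR adjusted p = 2.61e-05). Uqcrq, a subunit of complex III, had 837, 1069 and 1065 against 405, 396 and 558 (1.53 ± 0.21, edgeR adjusted p = 2.86e-05). The groups overlapped for neither gene. Of the mitochondrially encoded members, mt-Cytb, the only complex III subunit of the mitochondrial genome, had 22981, 13397 and 11420 core CPM in UMI-rich and 36550, 58967 and 39557 in UMI-poor cells (-1.14 ± 0.27, edgeR adjusted p = 0.00221).

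Scaling mattered for the direction of the UMI split. When libraries were scaled by total UMIs, which moves the median of all genes to -1.27, 0 members were higher and 27 lower. Scaled by core UMIs, 54 were higher and 14 lower. The nuclear median stayed above that of all genes by 0.59 to 1.27 under every alternative, none of which subtracted free RNA. When cells with 5% or more mitochondrial UMIs were left out, 6 members were called, all nuclear and higher, and the medians were 0.53 for nuclear and -0.36 for mitochondrially encoded members. The nuclear-retained RNAs Malat1 and Neat1 were both lower in UMI-rich cells (median log2 fold change -1.34), as were 8 of 10 immediate-early and heat shock genes that respond to dissociation (-1.01). Their part in the result was not tested.

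The nuclear members were also compared between acinar-like cells split by mitochondrial share, and the mitochondrially encoded members were left out of it because they define the split. In cells rich in mitochondrial UMIs, 70 of 80 nuclear members were lower, where 23.3% of all genes tested were lower and 24.6% higher, and the median log2 fold change was -1.06 against 0.11 for all genes. Atp5e, a subunit of the rotor stalk of ATP synthase, was 522, 255 and 468 core CPM in these cells and 908, 879 and 1077 in the other cells (-1.70 ± 0.17, edgeR adjusted p = 1.61e-07). Cox6b1, a subunit of complex IV, was 373, 202 and 355 against 591, 569 and 625 (-1.42 ± 0.16, edgeR adjusted p = 1.72e-07), again with no overlap. Scaled by total UMIs, which moves the median of all genes to 1.19, 12 nuclear members were higher and 3 lower. The nuclear median remained below that of all genes by 0.81 to 1.32 under every alternative, none of which subtracted free RNA. Only 145 of 362 female, 82 of 704 male 1 and 337 of 938 male 2 cells rich in mitochondrial UMIs were also UMI-rich. In each library most cells rich in mitochondrial UMIs were thus UMI-poor, most of all in male library 1. The 2 splits are therefore not separate results, although they do not divide the cells identically. Malat1 and Neat1 were higher in the cells rich in mitochondrial UMIs (median 1.57), as were 6 of 10 dissociation genes, and their part in the result was not tested.

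Tfrchi-like cells, an acinar state marked by the transferrin receptor gene, had the lowest median of the nuclear members among the 12 comparisons. Compared with all other acinar cells, 73 of 80 nuclear members were lower, where 16.0% of all genes tested were lower and 10.6% higher. By role, 36 of 37 complex I genes, all 8 tested of complex III, all 11 of complex IV and all 17 of ATP synthase fell, and 1 of 7 assembly factors. The median log2 fold change of the nuclear members was -1.67, against -0.09 for all genes. Atp5c1, the central stalk subunit of ATP synthase, had 124, 84.9 and 197 core CPM in Tfrchi-like cells of the 3 libraries and 499, 482 and 474 in the other acinar cells (-2.34 ± 0.27, edgeR adjusted p = 2.22e-05). Atp5g2, a gene for the ring subunit c, had 182, 127 and 186 against 647, 542 and 586 (-2.33 ± 0.24, edgeR adjusted p = 1.42e-05). Cox4i1, the widely used form of complex IV subunit 4, had 323, 410 and 731 against 1112, 1178 and 1286 (-1.86 ± 0.22, edgeR adjusted p = 2.29e-05). The 2 groups of libraries were apart for all 3 genes. Ndufa10, a complex I subunit, had the smallest change of the 73 (-0.79 ± 0.28, edgeR adjusted p = 0.0457), and its groups overlapped.

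None of the 13 mitochondrially encoded members was called in Tfrchi-like cells by edgeR, with 1 at an unadjusted p under 0.05 and 0 called by DESeq2, and their median log2 fold change was -0.03. mt-Co1, a catalytic subunit of complex IV, had 26362, 27855 and 27034 core CPM against 16547, 18284 and 17103 in other acinar cells, a log2 fold change of 0.14 ± 0.19 (edgeR adjusted p = 0.621) that is relative to the other genes of the fit. With cells of 5% or more mitochondrial UMIs left out, 11 of the 13 were lower and the nuclear count stayed at 73. Scaled by total UMIs, which moves the median of all genes to 1.80, 25 members were higher and 0 lower, and scaled by core UMIs 2 were higher and 61 lower. The nuclear median lay below that of all genes by 1.39 to 1.66 under every alternative, none of which subtracted free RNA. Tfrchi-like cells held only 5.12, 5.67 and 5.08 nuclear subunit UMIs per cell in the 3 libraries, against 120, 62.6 and 52.4 in acinar-like cells. This is 23.4-fold, 11.0-fold and 10.3-fold lower. Core UMIs per cell were also lower, 7.47-fold, 5.92-fold and 5.20-fold. Mitochondrially encoded UMIs per cell were 7.30-fold, 3.88-fold and 3.04-fold lower, so their high level holds per core UMI and not per cell. Of the other lists, 5 of 6 genes of complex II and cytochrome c and 9 of 11 genes of mitochondrial mass and import were lower as well, while Malat1 and Neat1 (median 2.02) and all 10 dissociation genes (1.66) were higher. Female Tfrchi-like cells also stood apart in markers of other cells. The 9 myeloid markers summed to 5840 core CPM there against 326 and 255 in the male libraries, with none of the 9 at 0, the 8 duct markers to 562 against 28.3 and 23.2, and the 6 acinar markers to 1729 against 6822 and 7008. Without the female library 71 members were called, all nuclear and lower. The part of the nuclear-retained and dissociation genes in the result was not tested.

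Car6hi-like cells, a small acinar state of 263 cells marked by carbonic anhydrase 6, differed from the other acinar cells in few members. Of the mitochondrially encoded members mt-Nd3, mt-Nd4l and mt-Nd5, all of complex I, were higher, where 2.34% of all genes tested were higher. The median log2 fold change of the 13 was 0.61. Of 80 nuclear members, 4 were lower, where 3.73% of all genes tested were lower, and all 4 had small changes. Uqcrq had 321, 748 and 731 core CPM in Car6hi-like cells against 767, 927 and 938 (-0.63 ± 0.19, edgeR adjusted p = 0.0179), and Atp5c1 had 257, 291 and 238 against 503, 477 and 470 (-0.80 ± 0.21, edgeR adjusted p = 0.00500). These calls were not stable. DESeq2 and the fit scaled by core UMIs called 0 members, total UMIs gave 49 higher and 0 lower, and 17 members were called without the female library, 1 without male library 1 and 0 without male library 2.

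Duct-like cells were lower than the other epithelial cells pooled in both parts, and more so in the mitochondrially encoded part. Acinar-like cells gave the most core UMIs of this pool, 2543063, 2786964 and 3009247 in the 3 libraries. Not every class of the pool lay above duct-like cells. MEC-like cells overlapped with them in both sums (mitochondrially encoded 52182 ± 1376 core CPM, nuclear 25525 ± 2592). Tfrchi-like cells had a lower nuclear sum (14752 ± 3357). Of 13 mitochondrially encoded members 11 were lower and of 83 nuclear members 35 were lower and 3 higher, where 20.8% of all genes tested were lower and 16.3% higher. The median log2 fold change was -1.37 for the former, -0.36 for the latter and -0.05 for all genes. mt-Cytb fell from 19691, 20159 and 16949 core CPM in other epithelial cells to 5745, 5444 and 5715 in duct-like cells (-1.88 ± 0.19, edgeR adjusted p = 7.31e-07). mt-Nd5, a complex I subunit, did not pass (1025, 1143 and 1286 against 1339, 1420 and 1129, -0.31 ± 0.16, edgeR adjusted p = 0.141), and mt-Atp8 did not pass either. So mitochondrially encoded members differed among themselves by more than 1 on the log2 scale.

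Of the nuclear members, 16 of 38 complex I genes, 4 of 8 of complex III, 4 of 12 of complex IV and 10 of 17 of ATP synthase were lower in duct-like cells. Uqcrb, a complex III subunit, had 512, 579 and 543 core CPM against 1606, 842 and 912 (-1.14 ± 0.20, edgeR adjusted p = 0.000174), and Atp5g1, another gene for subunit c, had 395, 483 and 472 against 701, 937 and 1011 (-1.09 ± 0.16, edgeR adjusted p = 3.47e-05). The 3 higher members were Ndufa4l2, Cox6b2 and Cox6c. Cox6b2 had 18.5, 16.1 and 17.7 core CPM against 4.08, 3.99 and 0.778 (2.31 ± 0.54, edgeR adjusted p = 0.00274), from 59 UMIs in 52 of 1697 cells. Within the pool MEC-like cells had a higher mean than duct-like cells (22.7 against 17.4 core CPM), while acinar-like cells had 0 UMIs. It was also seen in 23 of 937 MEC-like and, outside the epithelium, in 118 of 2883 fibroblast-like cells. Ndufa4l2 rested on 20 UMIs in 16 duct-like cells and 7 UMIs in all other epithelial cells. Without male library 1 the members called fell from 49 to 31. Scaled by total UMIs, which moves the median of all genes to 2.29, 95 members were higher and 0 lower. The mitochondrially encoded median still stayed 0.94 to 1.45 below that of all genes under every alternative, and the nuclear median 0.21 to 0.43 below. No alternative of this comparison subtracted free RNA. Of 15 glycolysis genes, among them Aldoa with 0 UMIs in every class, 9 were higher and 1 lower. Malat1 and Neat1 and all 10 dissociation genes were higher too, and their part in the result was not tested.

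MEC-like cells, the contractile cells around the acini, gave a similar picture. Of the mitochondrially encoded members 11 of 13 were lower and of 82 nuclear members 30 were lower and 1 higher, where 16.4% of all genes tested were lower and 14.3% higher. The medians were -1.39, -0.46 and -0.09 for the mitochondrially encoded members, the nuclear members and all genes. Atp5g1 had 270, 472 and 413 core CPM against 617, 941 and 1018 in other epithelial cells (-1.34 ± 0.18, edgeR adjusted p = 0.000740). Cox5a, a complex IV subunit, had 203, 272 and 272 against 425, 514 and 553 (-1.18 ± 0.18, edgeR adjusted p = 0.00146). The only higher member was Ndufa11, a membrane-arm subunit of complex I, with 630, 976 and 1012 against 313, 360 and 386 (1.09 ± 0.18, edgeR adjusted p = 0.00197), and all 12 settings tried called it. Members called fell from 42 to 23 without male library 1 and to 22 without male library 2. Under total UMIs, which moves the median of all genes to 2.16, 93 were higher and 0 lower, although the mitochondrially encoded median stayed 0.98 to 1.38 below that of all genes. Slc25a4, the muscle form of the ADP/ATP carrier of the inner membrane and no member, had the largest change of the mass and import list (4.11). Of 10 dissociation genes 6 were higher, and their part in the result was not tested.

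No member was called between Ltf+-like cells and the other epithelial cells pooled. The make-up of this pool differed between libraries. Duct-like cells gave 2811838, 248541 and 169547 of its core UMIs (female, male 1, male 2), and acinar-like cells 2543063, 2786964 and 3009247. The part of this difference in the result was not tested. Class by class, the summed nuclear subunits of Ltf+-like cells (35812.5 to 37099.4 core CPM) lay above those of acinar-like cells (31592.4 to 34066.8). edgeR called 0 of 95 members, with 8 at an unadjusted p under 0.05, DESeq2 called 0, and 6.17% of all genes tested were higher and 6.52% lower. The median log2 fold change was 0.09 for nuclear and -0.19 for mitochondrially encoded members, against -0.06 for all genes. Without the female library, which held only 100 of the 930 Ltf+-like cells, 31 members were called, 16 higher and 15 lower. Scaled by total UMIs 87 were higher and 0 lower, with the median of all genes at 1.31, and scaled by core UMIs 6 were higher and 0 lower. The female Ltf+-like cells had 56986 core CPM of the 6 Car6hi markers against 13571 and 13802 in the male libraries, and 2388 of the 8 duct markers against 555 and 792, and the part of these cells in the result was not tested. Cox4i1 had 1432, 1555 and 1448 core CPM against 1047, 1177 and 1269 (0.18 ± 0.21, edgeR adjusted p = 0.636). Glycolysis was called in 5 of 15 genes, all higher, where Aldoa had no UMI and could not be tested.

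**Figure D4:**
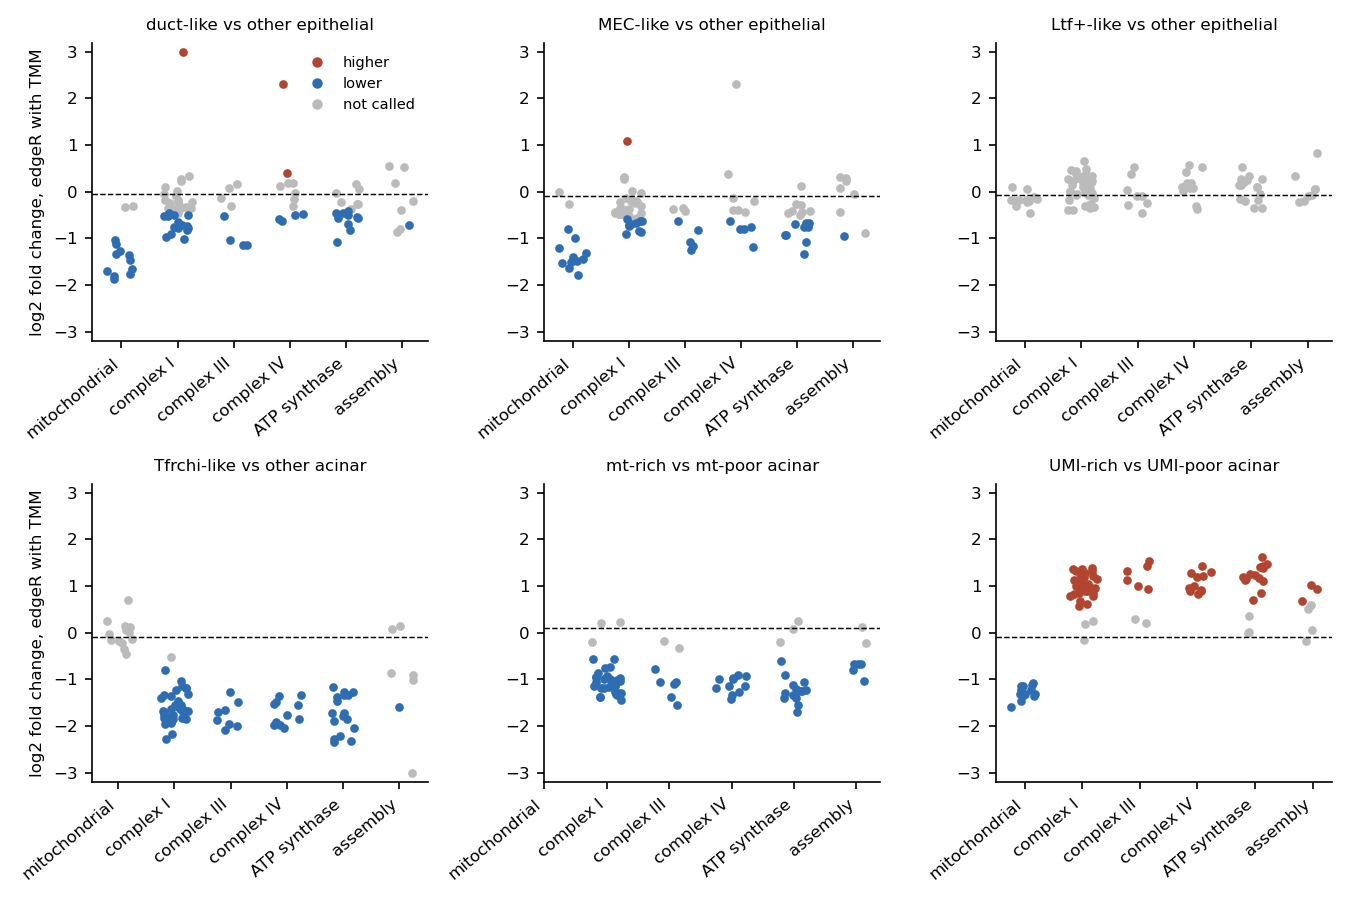
Log2 fold changes (edgeR, TMM scaling) of the members by role in 6 comparisons within the epithelium; red points are called higher, blue lower and grey neither, and the dashed line is the median of all genes tested. Nuclear members lie below it in Tfrchi-like cells (median -1.67) and above it in UMI-rich acinar-like cells (1.02), where total-UMI scaling turns these directions; values beyond 3 are drawn at 3 (Ndufa4l2 in duct-like and Ndufaf6, at 0 UMIs, in Tfrchi-like cells).

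The 13 mitochondrially encoded members did not keep fixed proportions between classes, although they are cut from shared precursors. mt-Cytb made up 15.2% ± 1.0 of their UMIs in acinar-like and 8.12% ± 0.41 in myeloid-like cells. mt-Co1 went the other way, with 12.3% ± 1.6 in acinar-like and 18.4% ± 0.8 in myeloid-like cells. mt-Nd5 made up 0.921% ± 0.043 in acinar-like and 2.33% ± 0.47 in MEC-like cells. For 12 of the 13 genes the lowest and highest classes did not overlap, the exception being mt-Nd6, the only member on the other strand of the mitochondrial genome, and these extremes were picked after the values were seen. mt-Atp8, mt-Atp6 and mt-Co3, and mt-Nd4l and mt-Nd4, overlap each other on the same strand, so their reads are uncertain. Of the 13, 9 were highest in Car6hi-like and 4 in Tfrchi-like cells on the core CPM scale. Nuclear subunits were most often highest in Ltf+-like cells (14 genes of complex I, 3 of complex III, 6 of complex IV and 7 of ATP synthase) or mural-like cells (13, 0, 6 and 5). Most of these first places were not separate from the second class: the libraries were apart for 3, 0, 0 and 2 of those genes in Ltf+-like and for 3 of complex I and 3 of complex IV in mural-like cells. The 6 complex IV genes of Ltf+-like cells include Cox8b, which had 1 UMI.

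Outside the epithelium the comparison was among the 5 remaining classes, of which the lymphoid-like class also held plasma and mast cell genes (below). Mural-like cells, the smooth muscle cells and pericytes of vessels, had 6 of 13 mitochondrially encoded and 12 of 81 nuclear members higher and 2 nuclear members lower, where 6.23% of all genes tested were higher and 15.5% lower. The median log2 fold change was 0.61 and 0.36, against -0.41 for all genes. The count is uncertain, as 6 members were called without the female library, 5 without male library 1 and 10 without male library 2, and DESeq2 called 3. Total and core UMIs gave 47 and 59 higher, and 0 lower. There were 149 mural-like cells in all.

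The 2 nuclear members with the largest changes were isoforms. Cox4i2, the restricted form of complex IV subunit 4 that is known from lung and vascular smooth muscle, had 450, 558 and 372 core CPM in mural-like cells and 1.34, 5.98 and 5.12 in the other non-epithelial cells (6.82 ± 0.41, edgeR adjusted p = 5.92e-58). It was seen in 50 of 149 mural-like cells (33.6%, exact 95% interval 26.0% to 41.7%, median 1661 UMIs per cell). In acinar-like cells, with a median of 10380 UMIs, 1 of 4006 cells had a Cox4i2 UMI (0.0250%), and in duct-like cells 0 of 1697, which allows a share of cells with a UMI of up to 0.177%. In mural-like cells the share with a UMI was 54.0%, 28.3% and 18.9% (female, male 1, male 2) at medians of 3065.5, 1471.5 and 1180.0 UMIs per cell. A share of cells with a UMI is not a share of cells that express the gene. Intervals and limits cover counting error only. Cox4i2 made up 26.5% ± 1.3 of the Cox4i1 and Cox4i2 UMIs of mural-like cells and 1.11% ± 1.29 in endothelial-like cells, the next class.

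Ndufa4l2, a paralogue of Ndufa4 that is known as a hypoxia-inducible gene, had 1068, 991 and 643 core CPM in mural-like cells against 29.8, 44.0 and 24.1 (4.28 ± 0.30, edgeR adjusted p = 1.23e-42). It was seen in 75 of 149 mural-like cells (50.3%, exact 95% interval 42.0% to 58.6%) and made up 71.4% ± 7.5 of the Ndufa4 and Ndufa4l2 UMIs there. The share of mural-like cells with a UMI was 80.0%, 45.7% and 26.4% (female, male 1, male 2). The interval covers counting error only and not this spread between libraries. Fibroblast-like cells followed with 83.3, 136 and 86.9 core CPM, in 361 of 2883 cells (12.5%), and were higher than the other non-epithelial cells together (2.04 ± 0.18, edgeR adjusted p = 1.39e-06). The share of fibroblast-like cells with a UMI was 15.7%, 9.75% and 5.57% in the same order of libraries. Endothelial-like cells had 1.21, 9.76 and 19.8 against 46.4, 70.3 and 40.1 (-3.69 ± 0.45, edgeR adjusted p = 5.78e-07). In lymphoid-like cells Ndufa4l2 was at 0 UMIs in all 3 libraries, at least 24.0-fold lower than in the other non-epithelial cells against a floor of 3 UMIs over the group, and myeloid-like cells had 2 UMIs against 576 in the others, a 182-fold difference with a counting interval of 50.1 to 1503. Ndufa4 itself was not called in mural-like cells (345, 588 and 203 against 333, 425 and 409, -0.59 ± 0.29, edgeR adjusted p = 0.134). Mural-like cells were the only 1 of the 11 classes in which Ndufa4l2 gave more UMIs than Ndufa4, a description with no test. The calls of Cox4i2 and Ndufa4l2 in mural-like cells passed in all 15 settings.

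**Figure D5:**
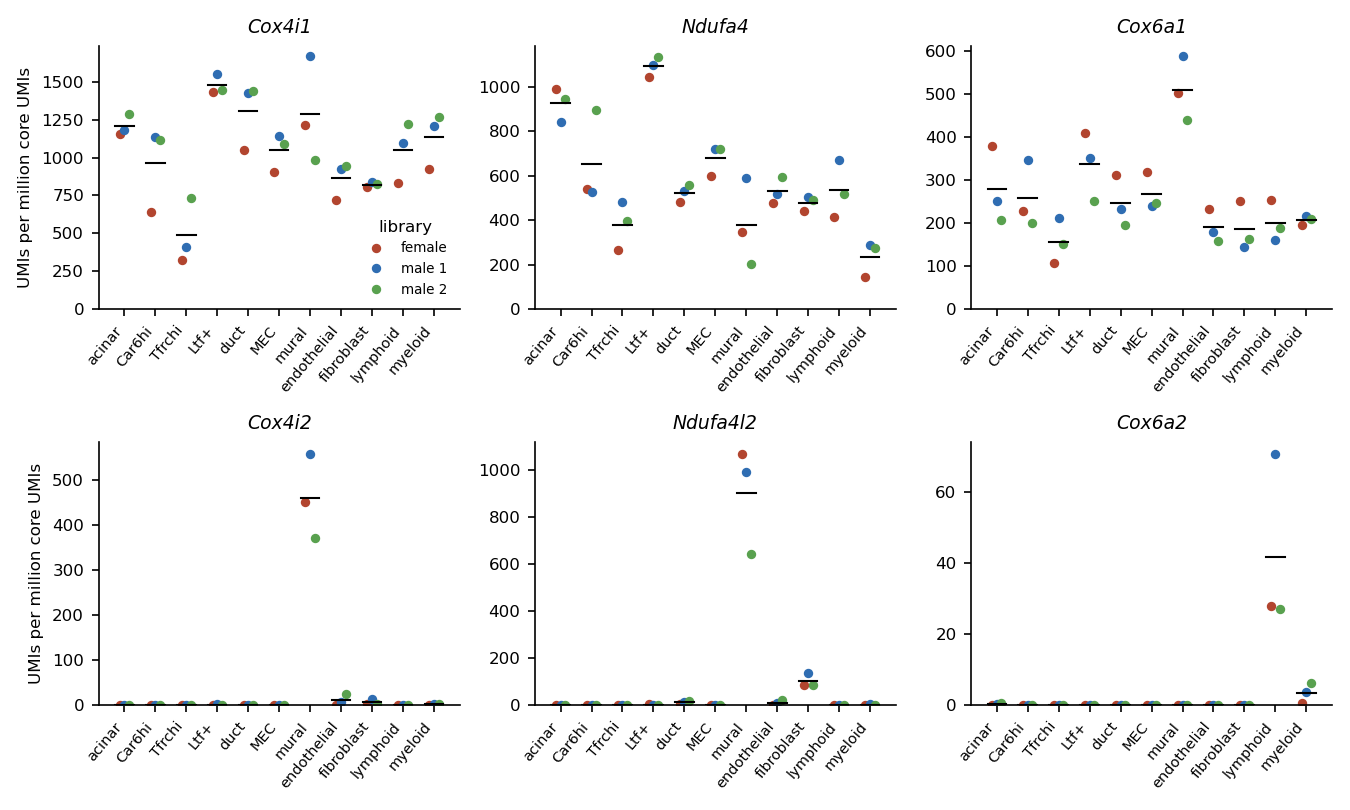
core CPM of 3 widely used forms (top) and their restricted counterparts (bottom) in 11 cell classes; points are the 3 libraries and bars their mean, and the axes differ. Cox4i2 and Ndufa4l2 stand highest in mural-like cells (450, 558 and 372, and 1068, 991 and 643), and Cox6a2 in lymphoid-like cells.

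The other restricted forms were sparse. Cox6a2, the heart and skeletal muscle form of subunit 6a, had 27.8, 70.5 and 26.9 core CPM in lymphoid-like cells against 0.214, 1.75 and 3.30 in the other non-epithelial cells (5.39 ± 0.56, edgeR adjusted p = 1.80e-09). This rested on 49 UMIs in 26 of 1584 cells, and 25 of these 26 lay in 1 of the 2 lymphoid-like clusters, which has 570 cells. In mural-like cells Cox6a2 was at 0 UMIs, which allows a share of cells with a UMI of up to 2.01% of the 149, while the widely used form Cox6a1 had its highest level there, 503, 588 and 440 core CPM against 410, 352 and 251 in Ltf+-like cells, the next class. Cox7a1, the muscle form of subunit 7a, was at 0 UMIs in mural-like, MEC-like, endothelial-like and Tfrchi-like cells and had 22 UMIs in fibroblast-like cells. Cox7b2, Cox8b and Cox8c were the 3 members with fewer than 10 UMIs. The 3 genes for the ring subunit c of ATP synthase, which encode the same mature protein, were mixed differently between classes: Atp5g1 made up 51.1% ± 5.7 of their UMIs in acinar-like and 32.7% ± 1.8 in duct-like cells, and Atp5g2 made up 30.5% ± 3.0 and 46.6% ± 1.0.

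Endothelial-like cells had 32 of 82 nuclear members lower and 2 higher, and 2 of 13 mitochondrially encoded members lower, where 24.0% of all genes tested were lower and 18.0% higher. The nuclear median was -0.36, against -0.08 for all genes. Ndufa8, a complex I subunit, was higher with 230, 221 and 282 core CPM against 97.6, 124 and 107 (0.91 ± 0.16, edgeR adjusted p = 7.76e-05). Atp5e was lower with 386, 514 and 490 against 548, 740 and 772 (-0.81 ± 0.13, edgeR adjusted p = 2.46e-05). For both genes the groups did not overlap. Members called fell from 36 to 20 without male library 1, and total and core UMIs gave 4 and 6 higher and 17 and 11 lower.

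Fibroblast-like cells had 4 of 82 nuclear members higher and 18 lower, and 2 of 13 mitochondrially encoded members higher and 5 lower, where 24.1% of all genes tested were higher and 29.4% lower. For the nuclear members both shares lie below the background. The share of the 13 mitochondrially encoded members that were lower lies above it. Of complex IV, 8 of 12 genes were lower, among them Cox5a with 159, 205 and 273 core CPM against 273, 401 and 425 (-1.05 ± 0.14, edgeR adjusted p = 5.07e-05), a step that held in each library. Atp5g2 had 280, 327 and 326 against 485, 562 and 559 (-1.03 ± 0.13, edgeR adjusted p = 3.49e-05). Scaled by total UMIs 32 members were higher and 4 lower, and by core UMIs 25 and 8, so the direction of most small changes depends on the scaling, and the count fell from 29 to 17 without male library 1.

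Myeloid-like cells had 27 of 81 nuclear members higher and 4 lower and 2 mitochondrially encoded members higher, where 25.0% of all genes tested were higher and 27.1% lower. Of complex IV 9 of 12 genes were higher and 1 lower. Cox4i1 had 927, 1211 and 1269 core CPM against 794, 927 and 960 (0.82 ± 0.16, edgeR adjusted p = 0.00109) and Atp5g2 had 493, 585 and 600 against 366, 420 and 421 (0.96 ± 0.16, edgeR adjusted p = 0.000288). Both were higher in each library, although the groups overlapped for Cox4i1. In core CPM the steps of both genes were smaller than these fold changes, which are relative to the other genes of the fit. Ndufa4 was lower, with 142, 289 and 277 against 444, 535 and 514 (-0.67 ± 0.17, edgeR adjusted p = 0.00642). Total UMIs gave 6 members higher and 18 lower and core UMIs 2 and 35, with the median of all genes at -0.40 and -0.54, and the count fell from 33 to 19 without male library 1. The nuclear median exceeded that of all genes by 0.22 to 0.46 under every alternative.

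Lymphoid-like cells had 11 of 81 nuclear members higher and 2 lower and 1 mitochondrially encoded member lower, where 16.2% of all genes tested were higher and 24.2% lower, so the members were called no more often than other genes. The class is mixed. Its larger cluster (cluster 7, 1014 of 1584 cells) was led by Areg and by plasma and mast cell genes such as Igkc, Igha, Mcpt4 and Cpa3, with 0 lymphoid markers among its 10 leading genes, although 7 of the 9 on the list were raised. The other (cluster 14, 570 cells) was led by Xcl1, Nkg7 and Gzma. The 3 plasma cell markers summed to 12.6, 10214 and 4388 core CPM in the class and the 3 mast cell markers to 1002, 1212 and 1318. With cluster 7 left out, 5 nuclear members were higher and 1 lower and 5 mitochondrially encoded members were lower. Atp5md had 231, 417 and 387 core CPM against 151, 206 and 203 (0.88 ± 0.19, edgeR adjusted p = 0.000338), and Ndufa1, a small complex I subunit, had 238, 205 and 194 against 107, 139 and 139 (0.84 ± 0.22, edgeR adjusted p = 0.00222). The libraries did not overlap for either gene, but with cluster 7 left out neither was called (log2 fold change 0.35, edgeR adjusted p = 0.287, and 0.48, edgeR adjusted p = 0.171). The call of Cox6a2 passed there. Total UMIs gave 1 member higher and 15 lower, with the median of all genes at -0.48, and core UMIs 12 and 5.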

How the data were processed

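The deposited files give UMI counts per gene and barcode, which the authors made with Cell Ranger 6.1.2 (per the labels; the header of the full matrices names another version) on mm10. Counts of called barcodes equal those of the full matrices. The annotation release is not given in the sources used here. As 3′ counting gives 1 count per molecule, values were not scaled by gene length. Called barcodes with more than 500 UMIs and more than 200 genes and less than 15% mitochondrial UMIs were kept and doublets called by Scrublet (scanpy 1.11.5; 0.8% per 1000 barcodes) were removed. Libraries were normalized with sctransform 0.4.2 and integrated in Seurat 5.3.0 (3000 features, 30 dimensions, resolution 1), with 383 genes, the members among them, left out of the features. Clusters were named from marker lists. Counts were summed per library and class and tested with edgeR 4.0.16 in R 4.3.3 (quasi-likelihood, TMM, filterByExpr, library as block), since both arms of a library come from 1 suspension; DESeq2 1.42.0 was an alternative. Other alternatives were scaling, filters on genes and cells, resolution 0.5, leaving out each library and subtracting free RNA. Free RNA was subtracted before testing only in the non-epithelial comparisons, so no test within the epithelium was corrected for it. Core-UMI scaling, the free RNA profile of barcodes with more than 400 UMIs and leaving out cluster 7 were added after the data were seen. Named nuclear members are, in each comparison, from the 5 largest and 5 smallest log2 fold changes among those called, plus fixed isoform pairs; mitochondrially encoded members are given as a group with examples chosen after their values were seen. The members and lists were chosen with earlier results of these data known. Counting intervals are exact (95%). The SE of an edgeR log2 fold change is its absolute value over the square root of the test's F statistic. It was derived from the test and not estimated separately. The tests were tested on simulated data.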

Additional observations from a re-analysis of the deposited data

Results flagged for a closer look

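Barcodes outside the cells analysed were looked at for both parts. Barcodes not called as cells but with more than 400 UMIs carried a signal from the members, and their log2 ratio of mitochondrially encoded to nuclear subunit UMIs was -0.30, -1.91 and -1.45 (female library, then male libraries 1 and 2), below that of every cell class kept. Called barcodes with 15% or more mitochondrial UMIs, which were left out by that limit, had log2 ratios of 5.64, 5.85 and 5.89 in the same order (256, 138 and 151 barcodes), a direction that the limit itself fixes. Both were flagged because they lie in barcodes that no comparison used.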

How the results depend on the processing

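Without 1 library the members called ranged from 0 to 31 in Ltf+-like, 31 to 47 in duct-like, 22 to 59 in MEC-like, 0 to 17 in Car6hi-like and 69 to 71 in Tfrchi-like cells, 67 to 72 and 61 to 81 in the acinar splits by mitochondrial share and UMI count, 5 to 10 in mural-like, 20 to 31 in endothelial-like, 17 to 31 in fibroblast-like, 19 to 36 in myeloid-like and 12 to 20 in lymphoid-like cells, and the acinar-like less duct-like log2 ratio from 1.09 to 1.30. Total UMIs gave 87, 95, 93, 49 and 25 members in Ltf+-like, duct-like, MEC-like, Car6hi-like and Tfrchi-like cells, 15 and 27 in the acinar splits by mitochondrial share and UMI count, and 47 and 21 in mural-like and endothelial-like cells. Core UMIs gave 6, 0, 59 and 17 in Ltf+-like, Car6hi-like, mural-like and endothelial-like cells. Both arms of a library come from 1 suspension, so library was kept as a block. Without the replicate block the members called were 26 in MEC-like, 0 in Car6hi-like, 4 in mural-like, 9 in endothelial-like, 6 in fibroblast-like, 11 in myeloid-like and 5 in lymphoid-like cells, and the other counts stayed within 1.5 times. DESeq2 called 0 in Car6hi-like, 3 in mural-like, 20 in endothelial-like, 14 in fibroblast-like, 19 in myeloid-like and 7 in lymphoid-like cells. Without a filter on low counts there were 10 in mural-like and 8 in lymphoid-like cells, and with cells of more than 1000 UMIs 9 in lymphoid-like cells. With cells under 5% mitochondrial UMIs there were 6 in the UMI split and 4 in mural-like cells, and the log2 ratio difference was 0.66, against 2.31 in thinned cells. Less the free RNA of barcodes with 10 to 100 UMIs there were 9 in mural-like, 17 in fibroblast-like and 21 in myeloid-like cells. With cluster 7 left out, the counts of the 5 non-epithelial classes stayed within 1.5 times. The cause of these changes was not tested. For the 104 named values, 946 alternatives kept the direction and an adjusted p under 0.05, 324 lost the call and 0 reversed. There, values under total and core UMIs were taken less the median of all genes, while their p came from the fit as scaled. As fitted, 35 of 104 had the opposite sign under total UMIs and 1 of 104 under core UMIs.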
